A study of Drosophila melanogaster with 6 samples.

Results

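Testis and sperm genes of Drosophila melanogaster were followed across 6 whole-body arrays. The set holds 47 genes, chosen by symbol from the platform annotation. Of these, 43 have a probe set annotated to 1 gene, among 11982 such genes on the array. The other 4, o-cup, S-Lap1, S-Lap3 and S-Lap4, were not analysed here. Where a gene has several probe sets, the one with the highest mean signal was taken, which concerned r-cup and bol. Adults received an injection of either the Gram-positive bacterium Staphylococcus saprophyticus or buffered saline (PBS) alone, and RNA was taken 12 hours later. The control genotype was gyc76c[revert], called revert here. The mutants are called by their alleles. KG03723 stands for gyc76c[KG03723], in which the affected gene, Gyc76C, encodes a receptor-type guanylate cyclase. The name rm7 stands for spz[rm7], in which the affected gene encodes Spätzle, the ligand of Toll. Each of the 6 combinations of genotype and injection is 1 array, so no group has a replicate. The labels give neither the sex of the flies nor their number per array.

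Sperm form in the testis through a fixed series of stages. Germ cells divide by mitosis, grow as spermatocytes that transcribe most of the genes needed later, pass through meiosis and then elongate as spermatids. In elongating spermatids histones give way to protamine-like proteins, the mitochondria fuse and stretch along the tail, and the axoneme, the microtubule core of the tail, is built. Transcription of many of these genes depends on testis-specific complexes, a relative of the MuvB complex (tMAC) and a set of testis TAFs, whose loss arrests cells before meiosis. Somatic tissues and females have little or no RNA of most of the genes described here, so in whole flies their signal comes mainly from the testis. Fewer testis cells in the sample and less RNA per testis cell cannot be told apart in such data.

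Signals are linear MAS5 intensities. A floor of 42.7, which is the 40th percentile of the 6 arrays' signals, replaced lower values ahead of the log2 step. Signals of different genes were ranked to choose genes to name and summed over lists. They were not read as relative amounts of RNA. Of the 43 genes, 36 were above the floor on all 6 arrays. Another 3 were above it on some arrays only, p-cup on 5, sa on 4 and topi on 3, and aly, comr, can and nht were on none. Counts and medians below cover all 43, with a gene under the floor on both arrays of a comparison at 0. The arrays share a trimmed mean near 500.01. The 3' to 5' signal ratio of the actin control lay between 2.29 and 2.81, lowest on the revert bacteria array and highest on the rm7 bacteria array. The GAPDH control (1.99 to 2.68) and the eIF-4a control (5.66 to 6.61) had the same lowest and highest arrays. For 18S rRNA the ratio lay between 0.45 in rm7 after PBS and 0.76 in KG03723 after PBS. The part of these ratios in the results was not tested.

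Most testis and sperm genes shared their lowest pair of arrays, which differ in both genotype and injection. Their summed signal was 39859 in revert after PBS and 22106 in revert after bacteria. It was 34827 and 34975 in KG03723, and 25629 and 37224 in rm7. The revert bacteria array was thus the low one and the rm7 PBS array the next, with the other 4 arrays between 34827 and 39859. The brightest genes weigh most in these sums. The sums over all 11982 genes lay from 10736253 to 11115244, but the shared trimmed mean of the arrays by itself keeps those close together. Of the 36 genes above the floor throughout, 27 had their lowest signal on the revert bacteria array, a position that 19.1% of all genes above the floor on all 6 arrays shared. In 28 of the 36 the revert bacteria and rm7 PBS arrays were the lowest pair, against 11.8% of all such genes. Of the 28, 23 were lowest in revert after bacteria and next lowest in rm7 after PBS, against 8.09% of all such genes. The 8 exceptions were ProtB, r-cup, d-cup, schuy, hale, dj, mia and twe. The highest signal fell on the revert PBS array for 21 of the 36, against 15.4% of all such genes. It fell on the rm7 bacteria array for 10 of the 36 (27.8%), nearer to the 19.3% of all such genes.

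**Figure D1:**
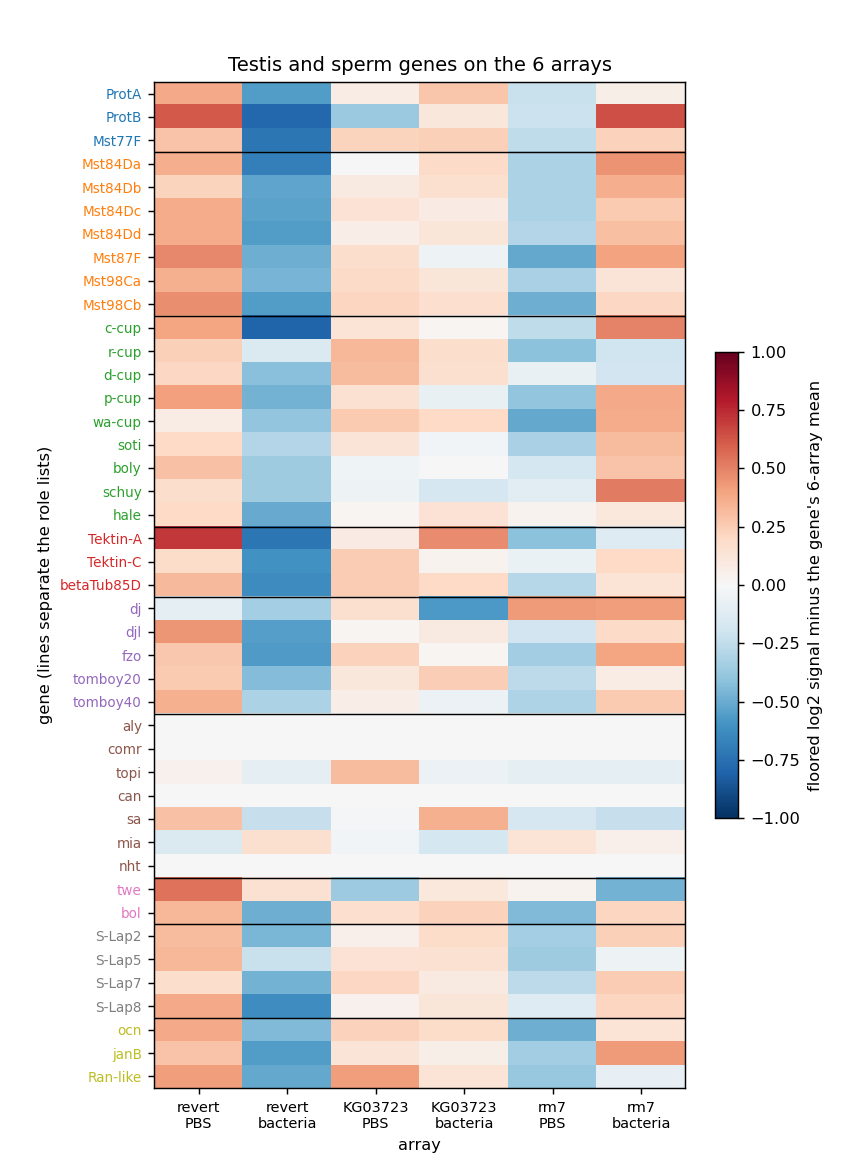
Rows are the 43 genes, grouped by role, and columns are the 6 arrays. Colour gives the floored log2 signal minus that gene's mean over the 6 arrays, from blue (lower) to red (higher). The revert bacteria column is blue in nearly every row and the rm7 PBS column in most, while aly, comr, can and nht are white because they were under the floor on every array.

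The sperm chromatin genes encode proteins that pack DNA in the sperm head. ProtA and ProtB are protamine-like proteins that replace histones, and Mst77F is a linker-histone-like protein of the same condensed chromatin. In this and the following paragraphs signals are given after PBS and then after bacteria. Mst77F read 3993 and 1985 in revert, 3828 and 3872 in KG03723 and 2743 and 3835 in rm7. ProtA read 604 and 316 in revert, 491 and 563 in KG03723 and 398 and 485 in rm7. ProtB read 464 and 175 in revert, 234 and 328 in KG03723 and 260.2 and 474 in rm7. All 3 were lowest on the revert bacteria array. ProtB was also low on the KG03723 PBS array, where ProtA and Mst77F were not their lowest or next lowest. ProtA and ProtB are neighbouring, closely related genes with 0 genes between them, and a further probe set is annotated to both. It read 2074 and 1058 in revert, 1688 and 1644 in KG03723 and 1292 and 1787 in rm7, so its log2 ratio of bacteria to PBS was -0.97, -0.04 and 0.47. How far the probe sets of such relatives pick up each other's RNA was not tested.

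The Mst(3)CGP genes encode proteins rich in repeats of cysteine, glycine and proline that are laid down along the sperm tail. Mst84Db read 3288 and 1959.6 in revert, 3004 and 3157 in KG03723 and 2260.1 and 3629 in rm7. Mst84Dc read 3449 and 1832 in revert, 2936 and 2809 in KG03723 and 2133 and 3186 in rm7. Mst84Dd read 2627 and 1375 in revert, 2119 and 2207 in KG03723 and 1653 and 2497 in rm7. These 3, like Mst84Da, had their lowest signal in revert after bacteria and their next lowest in rm7 after PBS. The 4 Mst84D genes lie side by side, and so do Mst98Ca and Mst98Cb. Mst87F was the 1 member of the family lowest on the rm7 PBS array, with 1099 and 562 in revert, 890.1 and 762 in KG03723 and 555 and 1042 in rm7. In revert all 7 were lower after bacteria, with log2 ratios between -1.05 and -0.75, and in rm7 all 7 were higher, between 0.45 and 0.91. In KG03723 they lay between -0.22 and 0.19, with 3 above 0 and 4 below.

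Comet and cup genes are transcribed after meiosis, late for the male germ line of the fly, and their transcripts gather at the growing ends of spermatid bundles. Among them soti encodes an inhibitor of a ubiquitin ligase that acts when spermatids are separated from each other. It read 256 and 182 in revert, 243 and 218 in KG03723 and 178 and 277 in rm7. Boly read 459 and 292 in revert, 364 and 376 in KG03723 and 333 and 456 in rm7. Signals of c-cup were 227 and 99.1 in revert, 190.1 and 175 in KG03723 and 145 and 243 in rm7. Of the 3, soti was lowest in rm7 after PBS and the other two in revert after bacteria. For wa-cup the values were 156 and 113, 177 and 170.0, and 104 and 192, and for r-cup 80.2 and 61.5, 85.9 and 77.1, and 51.4 and 59.4, in the same order of genotypes. In d-cup they were 108 and 69.6, 116 and 104, and 88.6 and 81.9. All 9 measured genes of this group were lower after bacteria in revert, by log2 ratios of -1.19 to -0.38, with p-cup a bound of at least 1.84-fold because it was under the floor after bacteria. In rm7, 8 of the 9 were higher and d-cup was at -0.11.

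The gene betaTub85D encodes the testis-specific beta-tubulin of the meiotic spindle and the sperm axoneme, and tektins are filament proteins of axonemal microtubules. BetaTub85D read 1920.3 and 991 in revert, 1826 and 1753 in KG03723 and 1258 and 1679 in rm7. Tektin-A read 386 and 143 in revert, 251 and 329 in KG03723 and 178 and 216 in rm7. Tektin-C read 164 and 94.8 in revert, 172 and 148 in KG03723 and 138 and 166 in rm7. Each had its lowest signal on the revert bacteria array and the next on the rm7 PBS array. Tektin-A had the lowest ratio of all 43 genes in revert, 2.7-fold lower after bacteria.

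Spermatid mitochondria fuse into a large body, the Nebenkern, with the help of the mitofusin encoded by fzo, and tomboy20 and tomboy40 encode testis forms of the import receptors Tom20 and Tom40. Tomboy20 read 547 and 338 in revert, 492 and 541 in KG03723 and 379 and 478 in rm7. Tomboy40 read 284 and 178 in revert, 232 and 212 in KG03723 and 179 and 265 in rm7. Signals of fzo were nearer to the floor, between 47.7 in revert after bacteria and 92.8 in rm7 after bacteria. The neighbouring genes dj and djl encode proteins of the sperm tail, and here they parted. Djl read 517 and 259.6 in revert, 387 and 406 in KG03723 and 334 and 434 in rm7, with the same lowest pair of arrays as most of the set. The signal of dj was 113 and 95.5 in revert, 134 and 81.0 in KG03723 and 162 and 161 in rm7. It was lowest in KG03723 after bacteria and highest on both rm7 arrays. Its log2 ratio of bacteria to PBS in revert, -0.24, was 0.03 after quantile normalization.

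Leucyl aminopeptidases of the S-Lap family are among the main proteins of fly sperm, and 4 of the 7 listed have a probe set. S-Lap7 read 2243 and 1429 in revert, 2281 and 2112 in KG03723 and 1657 and 2364 in rm7. S-Lap2 read 1389.6 and 816 in revert, 1160.5 and 1271 in KG03723 and 883 and 1320.0 in rm7. S-Lap8 read 1446 and 725 in revert, 1144 and 1208 in KG03723 and 1016 and 1289 in rm7. With S-Lap5 they were lower after bacteria in revert, with a median log2 ratio of -0.71, and higher in rm7, with a median of 0.43. The neighbours ocn and janB are related testis genes, and Ran-like encodes a testis copy of the nuclear transport GTPase Ran. Ocn read 4589 and 2603 in revert, 4142 and 4012 in KG03723 and 2514 and 3874 in rm7. JanB read 1324 and 738 in revert, 1188 and 1132 in KG03723 and 851 and 1459.9 in rm7. Ran-like read 324 and 170.1 in revert, 324 and 267 in KG03723 and 187 and 229 in rm7. The revert bacteria and rm7 PBS arrays were again the low pair for all 3.

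Of the genes that act before or during meiosis, bol, twe and mia were above the floor on all arrays. The Cdc25 phosphatase encoded by twe starts the meiotic divisions and is also made in the female germ line, and bol encodes an RNA-binding protein needed for its translation in spermatocytes. The signal of bol was 626 and 354 in revert, 559 and 584 in KG03723 and 366 and 577 in rm7. A second bol probe set read 171 and 149.6, 170 and 88.5, and 126 and 128. Its log2 ratios were -0.19 in revert, -0.94 in KG03723 and 0.02 in rm7. Those of the probe set used here were -0.82, 0.06 and 0.66, so the 2 disagree in all genotypes. A further bol probe set was under the floor on every array. With the mean over all its probe sets bol had a ratio of -0.34 in revert, -0.29 in KG03723 and 0.23 in rm7. Twe read 890.4 and 679 in revert, 474 and 658 in KG03723 and 624 and 441 in rm7. It was highest in revert after PBS and lowest in rm7 after bacteria, and no other of the 36 had its lowest signal there. Of the 7 transcription factors whose loss causes meiotic arrest, only mia, a testis TAF, was above the floor on all arrays. It read 131 and 162 in revert, 142 and 128 in KG03723 and 159 and 149.8 in rm7. Mia was the 1 gene of the set that was higher in revert after bacteria, and its highest array was the one lowest for most other genes. Another testis TAF, sa, read 61.7 and 41.4, 49.7 and 64.4, and 44.7 and 31.3, and topi, a tMAC subunit, 47.1 and 27.4, 57.1 and 44.0, and 27.9 and 25.1. Both crossed the floor between arrays, so their ratios are bounds where 1 value lies under 42.7. The tMAC genes aly and comr and the testis TAF genes can and nht were under the floor throughout, so nothing can be said of their change.

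As a description over 6 arrays, each gene's profile was correlated with the median profile of the other members. Of the 36 genes above the floor throughout, 23 had a Pearson r of at least 0.9, with a median of 0.946. The lowest were mia at -0.79, twe at -0.09 and dj at 0.07, and the highest was Mst84Dc at 0.997. Points share arrays and scaling, and 6 arrays are few. Of all 8784 genes above the floor throughout, members included, 478 reached 0.9 against the median profile of the set, and the median r was -0.08.

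The response to the bacterium was read within each genotype. In revert the median log2 ratio of bacteria to PBS was -0.77 over the 43 genes, a ratio of 0.587, against 0 over all genes. Of the 43, 38 were below 0 and 1 above, where 40.7% of all genes were below. At least 2-fold lower were 6 genes, ProtB, Mst77F, Mst84Da, Mst98Cb, c-cup and Tektin-A, and 2.89% of all genes were. None of the 43 was at least 2-fold higher, against 0.492% of all genes. In KG03723 the median was -0.04, with 17 above 0 and 22 below. None was 2-fold apart in either direction there, where 0.401% of all genes were higher and 0.726% lower. The largest departures in KG03723 were dj at -0.73, ProtB at 0.49, twe at 0.47 and Tektin-A at 0.39. In rm7 the median was 0.45, a ratio of 1.37, with 33 above 0 and 5 below. None reached 2-fold, with 0.526% of all genes higher and 0.275% lower. The highest were Mst87F at 0.91, wa-cup at 0.89 and ProtB at 0.87, and the lowest was twe at -0.50.

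**Figure D2:**
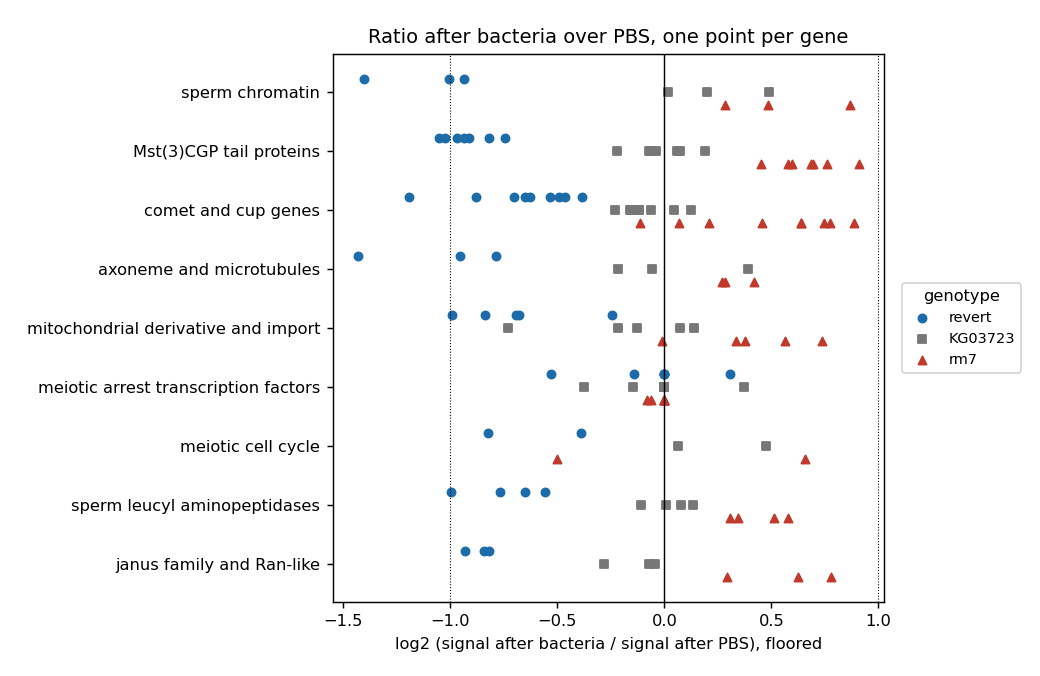
Each point is 1 of the 43 genes, placed by its log2 ratio of the signal after bacteria to that after PBS (x axis, floored values) within its role (y axis); circles are revert, squares KG03723 and triangles rm7, and dotted lines mark 2-fold. Outside the meiotic arrest genes every revert point lies left of 0, and every rm7 point lies right of 0 except those of d-cup, dj and twe. Most KG03723 points lie between.

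The revert and rm7 responses share no array. Of the 36 genes above the floor throughout, 32 were lower after bacteria in revert and higher in rm7, against 27.9% of all genes above the floor throughout. The other 4 were d-cup, dj and twe, lower in both (dj in revert not after quantile normalization), and mia. In 16 of the 36 both shifts were at least 0.5 on the log2 scale, against 5.27% of all such genes. The difference between the responses was not tested, since each is a ratio of 2 arrays.

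**Figure D3:**
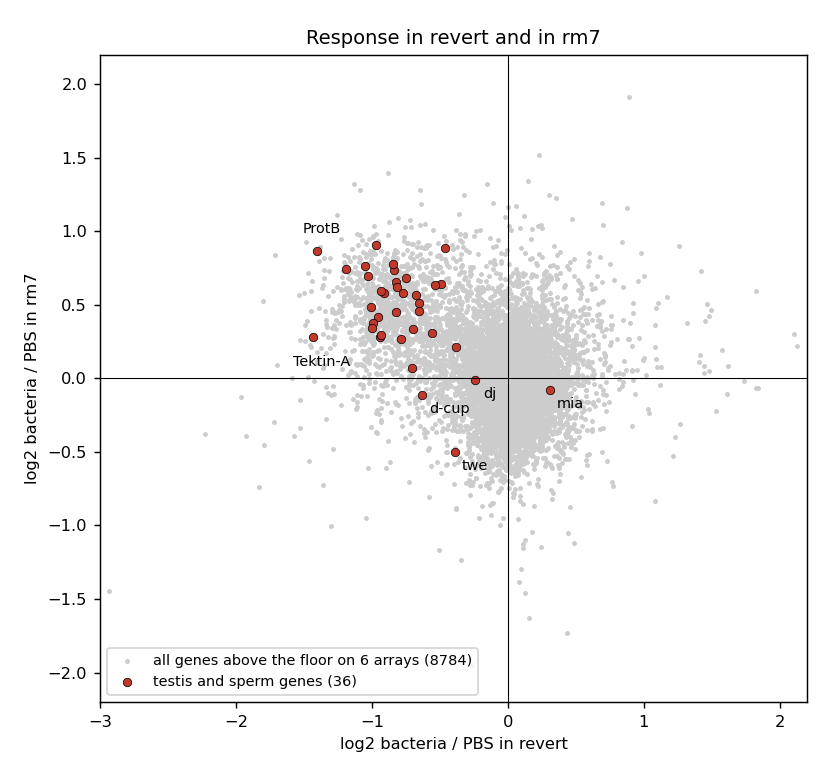
Points are genes above the floor on all 6 arrays, 8784 in grey and the 36 testis and sperm genes in red, by their log2 ratio of bacteria to PBS in revert (x axis) and in rm7 (y axis); 6 genes lie outside the plotted range. Most red points lie in the upper left, lower in revert and higher in rm7, within a wider cloud of grey points, and mia lies apart on the right.

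Between genotypes the sign of the difference depended on the injection. After PBS, KG03723 had a median log2 ratio to revert of -0.16, with 31 of 43 genes below 0 and none 2-fold apart. Against this, 1.45% of all genes read 2-fold or more higher and 1.12% as far lower. ProtB was the furthest, at -0.99, followed by twe at -0.91 and Tektin-A at -0.62. After bacteria the median was 0.59, with 36 above 0. Tektin-A, at 1.20, was the 1 gene at least 2-fold higher, against 1.83% of all genes, and none was 2-fold lower, against 1.04%. In rm7 after PBS the median ratio to revert was -0.60, with 37 of 43 below 0. Tektin-A, at -1.12, was the 1 gene at least 2-fold lower, against 3.51% of all genes. None was at least 2-fold higher, against 2.12% of all genes, and dj at 0.52 and mia at 0.28 were the 2 above 0. After bacteria the median was 0.69, with 34 above 0. ProtB at 1.44, c-cup at 1.29 and Mst84Da at 1.13 were at least 2-fold higher, against 4.57% of all genes, and none was 2-fold lower, against 2.42%. In each injection these comparisons share the revert array, so they are not independent of each other.

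The mutants compared with each other use no revert array. After PBS the median ratio of rm7 to KG03723 was -0.39, with 34 of 43 genes below 0, and after bacteria it was 0.05, with 24 above 0 and 15 below. None of the genes was 2-fold apart in either comparison, although dj came close at 0.99 after bacteria. After PBS 2.03% of all genes were 2-fold or more higher in rm7 and 3.58% lower. After bacteria the shares were 3.08% and 2.46%. The order of the 3 genotypes after PBS was thus revert, KG03723 and rm7 from high to low by list median. After bacteria revert was the low one and the median ratio between the mutants was near 0.

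The additive limma fit of genotype and injection over the 6 arrays placed 39 of the 43 genes among 9540 tested, those above the floor on at least 3 arrays. After Benjamini-Hochberg adjustment over all genes 0 of the 39 passed for bacteria, for KG03723 or for rm7, and 0 were at an unadjusted p under 0.05 in any of the 3. Of all genes tested 0% were called higher and 0% lower for bacteria. The shares were 0.681% and 0.692% for KG03723, and 2.61% and 3% for rm7. The median fitted log2 effect over the 39 genes was -0.10 for bacteria, 0.21 for KG03723 and 0.05 for rm7. These medians moved when an array of revert or of rm7 was left out. Without the revert PBS array they were 0.24, 0.75 and 0.58, and without the revert bacteria array 0.24, -0.31 and -0.49. Without the rm7 PBS array they were -0.43, 0.21 and 0.52, and without the rm7 bacteria array -0.43, 0.21 and -0.38. They moved less without the KG03723 PBS array (-0.15, 0.30 and 0.05) or the KG03723 bacteria array (-0.15, 0.16 and 0.05). The closest to the threshold were dj in rm7 (log2 0.64 ± 0.28 SE, limma adjusted p = 0.314) and twe in rm7 (-0.57 ± 0.25, limma adjusted p = 0.318). The fit takes its error from the departure from additivity, with 2 residual degrees of freedom, and for these genes that departure was large. The median residual standard deviation was 0.485 over the 39 genes and 0.171 over all genes tested. By role it was 0.549 for the Mst(3)CGP genes, 0.540 for sperm chromatin, 0.510 for ocn, janB and Ran-like, 0.448 for the S-Lap genes, 0.410 for comet and cup genes and 0.174 for the meiotic arrest genes. Absence of a call therefore does not show that the genes were unchanged. Leaving out any 1 array leaves 1 for its genotype, which is then assumed to vary like the others. That array is fitted exactly, so the error comes from the other genotypes only, with fewer than 2 residual degrees of freedom. Without the revert PBS array the revert level rests on the revert bacteria array, the lowest for 27 of the 36 genes above the floor throughout. The calls that follow depend on which array was left in, so no conclusion is drawn from them. Without the revert PBS array 7 of the 39 were called higher in KG03723, betaTub85D, Mst77F, the 4 Mst84D genes and ocn, against 1.97% of all genes, and none lower, against 1.01%. In rm7 5 were called higher, Mst77F, Mst84Da, Mst84Db, Mst84Dd and ProtB, against 3.23%, and none lower, against 3.17%. Without the revert bacteria array 1 of the 39, ocn, was called lower in rm7, against 3.38% of all genes, a share no higher than that of all genes.

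Other testis genes, listed apart from the 47, were read beside them. Of 62 such genes 46 have a probe set and 28 were above the floor on all arrays. Their median log2 ratio of bacteria to PBS was -0.47 in revert, 0 in KG03723 and 0.19 in rm7. Among 20 other spermatid and sperm genes 15 were below 0 in revert, with a median of -0.61, and 15 above 0 in rm7, with a median of 0.29. In this list scpr-C read 569 and 371 in revert, 428 and 409.5 in KG03723 and 298 and 406 in rm7, and Porin2, a testis porin, 400.5 and 223, 393 and 439, and 345 and 481. Testis-specific proteasome subunits were lower in revert in 12 of 13 (median -0.72) and higher in rm7 in 8 of 13 (median 0.30). The Y-linked fertility list was under the floor throughout in 6 of 7. In the limma fit 1 of 4 tested genes of the transcription list was called higher in KG03723, against 0.681% of all genes, and 1 in rm7, against 2.61%. Of 11 proteasome genes tested 1 was called higher in rm7. The members of these lists were picked from general knowledge and with earlier results of these data known.

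Markers of other tissues of the male and the female were read on the same arrays. The male accessory gland list, 22 of 30 genes, all above the floor throughout, summed to 133011 and 86912 in revert, 105160 and 100102 in KG03723 and 71737 and 98426 in rm7. Its median log2 ratio of bacteria to PBS was -0.64 in revert, with 21 of 22 below 0, -0.04 in KG03723 and 0.49 in rm7, with 21 of 22 above 0. In contrast to the testis genes, which were lowest on the revert bacteria array, this list was lowest on the rm7 PBS array. For rm7 3 of its 22 genes were called lower in the limma fit, against 3% of all genes. Of the female lists, those of yolk proteins and ovary germ line varied less and that of the eggshell more. Summed yolk protein and fit signals lay between 91270 and 115301, with median ratios of 0.03 in revert and 0.25 in rm7. The ovary germ-line list, 24 of 28 genes, lay between 47537 and 58206, with 0.02 in revert, 0.19 in KG03723 and -0.20 in rm7. Above 0 were 14 of its 24 genes in revert, 21 in KG03723 and 4 in rm7, where 20 were below. The summed eggshell signal, over 15 of 20 genes, lay between 90524 in rm7 after bacteria and 144398 in KG03723 after bacteria, and 5 of the 15 were at least 2-fold lower after bacteria in rm7, against 0.275% of all genes. Summed flight muscle signals, over 15 of 21 genes, lay between 35203 in rm7 after PBS and 47826 in revert after PBS. Flight muscle genes had a median ratio of -0.10 in revert and 0.44 in rm7, with all 15 above 0 there. In the limma fit for rm7, 4 of the 15 eggshell genes were called higher, against 2.61% of all genes, and 3 lower, against 3%. For KG03723, 3 eggshell genes were called higher, against 0.681%. Of the 15 flight muscle genes 2 were called lower for rm7, against 3%. The median residual standard deviation was 0.390 for the accessory gland list, 0.166 for ovary germ line and 0.104 for yolk proteins and fit. Msl-2, the 1 gene with a probe set among markers of male dosage compensation, read 117 and 140.2 in revert, 79.9 and 60.4 in KG03723 and 141 and 121.5 in rm7. It was highest in rm7 after PBS and next in revert after bacteria, the lowest pair of arrays for most testis and sperm genes. Whether msl-2 RNA follows the number of males was not tested. The part of the number of males or of the size of male organs in these differences was not tested.

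**Figure D4:**
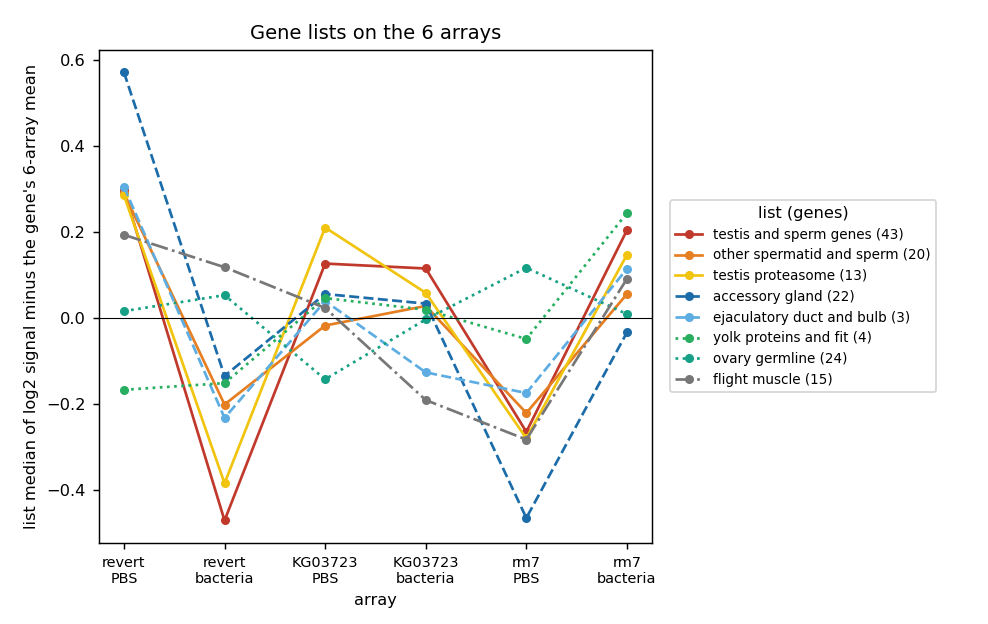
Lines give, for each gene list and array (x axis), the median over the list of the floored log2 signal minus each gene's mean over the 6 arrays (y axis); the number of genes is in the legend. The testis lists and the male gland lists dip on the revert bacteria and rm7 PBS arrays, the ovary list stays within 0.15 of 0 on every array, and flight muscle dips in rm7 after PBS but not in revert after bacteria. Of the 3 genes in the ejaculatory line, only Ebp had that lowest pair of arrays. The median of that line was also below 0 in KG03723 after bacteria (-0.13).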

How the data were processed

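RNA of whole adult flies was measured on 6 single-colour Affymetrix arrays, 1 per group. For 18952 probe sets the authors deposited a linear intensity on each array. The submitters' processing notes name MAS5. Version and scaling are not given in the sources used here. After 183 control probe sets were set aside, the platform annotation named 1 gene for 13647, several for 402 and none for 4720. All 43 gene identifiers were found in the RefSeq gene table (assembly Release 6), which also gave the gene order.

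Each gene is represented by its brightest probe set, floored at 42.7. Ratios of 2 arrays carry no test. The additive fit used limma 3.58.1 in R 4.3.3, with a variance trend and Benjamini-Hochberg adjustment at 0.05 over 9540 genes. It was tried on simulated data with additive effects and independent noise. That setting lacks the shared departure from additivity seen in these genes. Genes given with 6 values are the 3 brightest of each role and the 3 highest and lowest of each response. Members and lists were chosen with earlier results of these data known. Alternatives were quantile and cyclic loess normalization, other floors, a pseudocount, other probe sets, a 3-fold threshold and fits without arrays, variance trend or filter. The number of arrays limits the precision.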

Additional observations from a re-analysis of the deposited data

Results flagged for a closer look

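What stands out is that the median response to the bacterium, each time a ratio of 2 single arrays, had opposite signs in revert and in rm7. The male accessory gland list had the same pair of signs, with medians of -0.64 in revert and 0.49 in rm7. The values below are the log2 ratio of bacteria to PBS in rm7 minus that in revert, and none of these differences was tested. Over all 43 genes the list median in rm7 exceeded that in revert by 1.22. By role the difference of medians was 1.62 for the Mst(3)CGP genes, 1.49 for sperm chromatin, 1.47 for ocn, janB and Ran-like, 1.27 for comet and cup genes and 1.24 for axoneme and microtubules. It was 1.14 for the S-Lap genes, 1.07 for mitochondrial genes and 0.69 for the meiotic cell cycle pair. For the meiotic arrest transcription factors, most of them under the floor, it was 0.

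Single genes are listed where their 6 values are given, the 4 arrays of the comparison were above the floor and the signs were opposite. ProtB had a difference of 2.27, c-cup 1.94, Mst87F 1.88 and Tektin-A 1.71. Differences were 1.62 for janB, 1.53 for Mst84Dd, 1.49 for Mst77F and Mst84Dc, 1.48 for bol, 1.44 for ocn and 1.43 for Mst84Db. That of bol holds for its brightest probe set, with which a second probe set disagreed. For betaTub85D and djl they were 1.37, for wa-cup and S-Lap2 1.35, for S-Lap8 1.34, for tomboy40 1.24, and for ProtA and Ran-like 1.22. Smaller ones were 1.16 for S-Lap7, 1.13 for soti, 1.10 for boly, 1.06 for Tektin-C, 1.03 for tomboy20 and 0.59 for r-cup. Mia ran the other way, at -0.39.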

How the results depend on the processing

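The 9 list medians were recomputed under 8 alternatives each, 72 values in all. In 67 the size moved by at most 1.5 times or by at most 0.1 on the log2 scale. Where the main median was at least 0.1 in size, 0 turned sign, and signs of smaller medians were not counted. The other 5 came from the floor at the 60th percentile, which by construction sets more of the genes to 0. Under it the median was -0.43 for bacteria in revert, 0.14 for bacteria in rm7, 0.15 for KG03723 over revert and 0.14 for rm7 over revert after bacteria, and -0.013 for rm7 over KG03723 after PBS. The counts of genes 2-fold apart are small and 18 of 81 moved by over 1.5 times. In revert 6 became 3 with that floor or a pseudocount and 0 at a 3-fold threshold. In rm7 against revert after bacteria 3 became 1 with that floor and 0 at 3-fold. Of 735 recomputed ratios of named genes, 6 fell under 2-fold, 1 passed it and 69 moved by over 1.5 times and over 0.1, 32 of them with that floor, such as Tektin-C in revert from -0.79 to 0. Signs turned in 3, none of them 2-fold apart: bol in KG03723 (0.06 to -0.29, mean over probe sets), Mst77F in KG03723 (0.017 to -0.020, cyclic loess) and dj in revert (-0.24 to 0.03, quantile). In the fit 0 genes were called under every normalization, floor, filter and variance setting tried, and 0 for bacteria without both arrays of any genotype. Leaving out each array in turn gave 0 to 7 called genes for KG03723 and 0 to 5 for rm7, and the cause was not tested. No paired analysis was possible because the labels carry no replicate numbers and each group is 1 array. Genotype is already a term of the fit, so bacteria and PBS are compared within genotype.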
